A study of Mus musculus with 2 samples.

Results

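The genes described here are 10 mouse genes whose transcripts mark the two-cell stage of the embryo: Zscan4c, Zscan4d, Zscan4e, Tcstv1, Tcstv3, Zfp352, Tdpoz1, Tdpoz2, Tdpoz3 and Tdpoz4. They were found by symbol, as every probe set whose annotation gives exactly 1 gene symbol and that symbol is on the list. All 10 genes had such a probe set, and Tdpoz2 had 2, so the genes stand on 11 of the array's 23521 single-symbol probe sets, which name 22180 genes in all. The samples were 2 stable lines of Niwa mouse embryonic stem cells, 1 sample each. The EWS-OCT4A-GFP line expresses a fusion of the EWS protein to OCT4A, the pluripotency isoform of a POU transcription factor, tagged with GFP. The GFP line expresses GFP alone and served as the control. LIF was present in the medium of both lines, and both were given 1 µg/ml doxycycline, which lowers their endogenous OCT-4, and no sample without doxycycline was included. The promoter that drives the transgenes, the number of clones behind each line and the length of the treatment are not given in the sources used here. RNA was hybridised to an Affymetrix whole-transcript array.

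In the mouse embryo these genes switch on with the first wave of zygotic transcription and are silenced again soon after. In cultures of embryonic stem cells they are known for a rare, passing state in which single cells re-express the two-cell programme, while most cells keep the genes off. The homeobox factor DUX, helped by DPPA2 and DPPA4, activates many of them, and chromatin repressors such as TRIM28 and the H3K9 methyltransferases hold them down. Zscan4 proteins carry a SCAN domain and zinc fingers and are known for telomere lengthening in stem cells.

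Each gene has 1 value per line and therefore no replicate error. No test between the lines was possible, no p-value is given, and all differences are sizes in these 2 samples. Values are deposited RMA values on the log2 scale, and each difference is taken as EWS-OCT4A-GFP minus GFP. A value of 4.10, the median over both arrays, was used as a floor. A probe set is counted as higher or lower when it differs by at least 2-fold, a log2 difference of 1, and its larger value is at or above the floor. Of the 11 probe sets, 5 were at or above the floor in at least 1 sample and 4 of these in both. The remaining 6 were under the floor in both samples, where RMA compresses differences and the distance to background is unknown. None of these 6 differed by 2-fold, and of all single-symbol probe sets under the floor 1.49% did, in either direction.

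The Zscan4 genes lie together on chromosome 7 and are copies of each other. The promoters of Zscan4c and Zscan4d are shown because these genes differed in the same direction and because the sequences show how alike the copies are. They are the 250 bases before the annotated start, from RefSeq, build GRCm38.p6. Zscan4c lies on the plus strand at chr7:11005495-11005744 and Zscan4d on the minus strand at chr7:11166149-11166398. The first run of capitals in each, TGATAGAATCA, marks a match to the Dux site, searched on both strands with any base at 2 inner positions and found here on the strand opposite to the gene. The second run marks a match to the TATA box letters, TATAAA, at positions -54 to -49 from the annotated start in Zscan4c and -65 to -60 in Zscan4d.
Zscan4c: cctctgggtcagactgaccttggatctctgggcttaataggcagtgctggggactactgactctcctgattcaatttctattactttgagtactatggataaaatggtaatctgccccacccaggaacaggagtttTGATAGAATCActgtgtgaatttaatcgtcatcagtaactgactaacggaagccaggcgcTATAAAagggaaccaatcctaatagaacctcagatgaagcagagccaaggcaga
Zscan4d: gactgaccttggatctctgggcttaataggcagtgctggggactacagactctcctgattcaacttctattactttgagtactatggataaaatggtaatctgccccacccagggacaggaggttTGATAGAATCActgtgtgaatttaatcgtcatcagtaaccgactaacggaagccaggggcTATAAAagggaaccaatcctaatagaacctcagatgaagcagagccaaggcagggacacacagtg

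These promoters are nearly the same sequence. In the 300-base windows of the RefSeq table, which run from 250 bases before the start to 50 from it on, Zscan4c and Zscan4d were identical at 97.2% of 289 aligned positions. The windows of Zscan4b and Zscan4f, which are not among the 10 genes, matched Zscan4c at 95.3% and 99.3%. All 4 Zscan4 windows in the table held a match to the Dux site and to TATAAA. On either strand the Dux site occurred in 68 of 32851 promoter windows, or 0.207%, and TATAAA in 4473, or 13.6%. The table held windows for 5 of the 10 genes (Zscan4c, Zscan4d, Zfp352, Tdpoz1 and Tdpoz4), and the Dux site was found in Zscan4c and Zscan4d. The octamer ATGCAAAT, the core of OCT4 sites, occurred in 1.74% of all windows and in none of the 5. A joined SOX and OCT site, with up to 2 mismatches, occurred in 0.408% of all windows and in none of the 5. TGCACAC, a motif reported for ZSCAN4 binding, occurred in 4.4% of all windows and in none of the 5. A match describes the letters in a window and does not show that a factor binds there.

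In EWS-OCT4A-GFP cells all 3 Zscan4 genes had the higher value. Zscan4c (probe set 17473688), the copy best known from embryonic stem cells, read 6.46 in EWS-OCT4A-GFP cells, against 5.08 in GFP cells. Both values lay above the floor, and the difference was 1.38, or 2.61-fold. Zscan4e (probe set 17486496), which the RefSeq table lists as a pseudogene, read 6.40 in EWS-OCT4A-GFP cells, against 4.58 in GFP cells. Its difference was 1.83, or 3.54-fold, again with both values above the floor. Zscan4d (probe set 17486489), the copy best known from the two-cell embryo itself, read 5.06 in EWS-OCT4A-GFP cells, against 3.32 in GFP cells. Its difference was 1.74, or 3.34-fold, but the GFP value lay under the floor. With that value raised to the floor the difference was 0.96, short of 2-fold. The RNA comes from whole cultures, so more cells with Zscan4 transcripts and more transcript per cell cannot be told apart, for these genes and all others here.

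**Figure D1:**
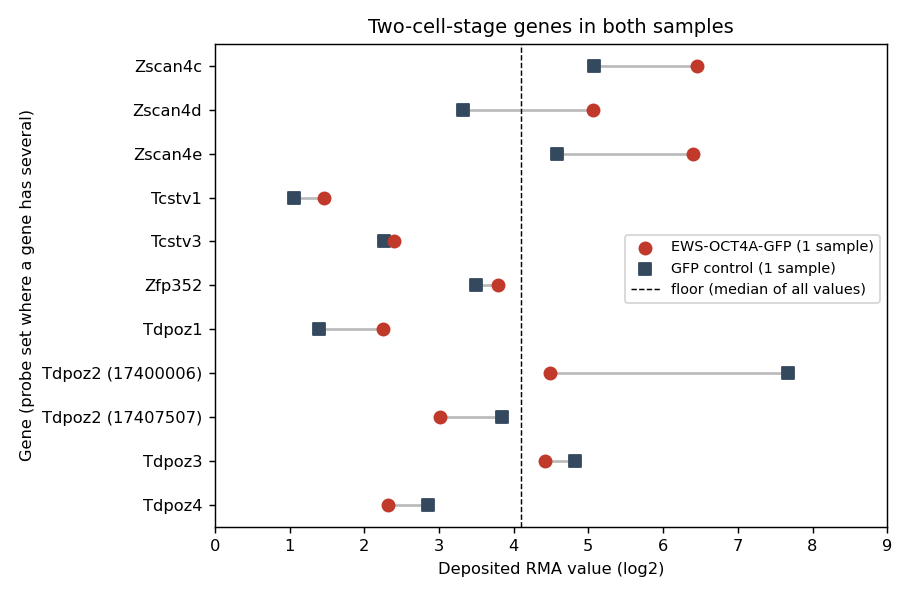
Deposited RMA value (log2, horizontal axis) of each of the 11 probe sets in EWS-OCT4A-GFP cells (circles) and the GFP sample (squares), with the floor of 4.10 as a dashed line. The 3 Zscan4 genes have their circle to the right of their square, Tdpoz2 (17400006) has its square far to the right, and 6 probe sets lie left of the floor in both samples.

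Of the 11 probe sets, 3 were 2-fold or more higher in EWS-OCT4A-GFP cells, and these were the Zscan4 genes, where 5.6% of all single-symbol probe sets were. Just 1 of the 11 was at least 2-fold lower, a Tdpoz2 probe set, where 7.04% of all single-symbol probe sets were, so the lower count is near the background. The median difference of the 11 was 0.29, and that of all single-symbol probe sets was 0.0. The 3 Zscan4 genes are copies of each other, so they are not 3 separate observations, and whether their probe sets read each other's transcripts was not tested. Their mean levels over both samples ran from 4.19 to 5.77. Of the 5783 single-symbol probe sets in that range of mean level, 8.65% were at least 2-fold higher, and 4.62% had a difference at least as large as that of Zscan4c.

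The other Zscan4 probe sets on the array bear on the same family without being among the 10 genes. Zscan4b, from the same cluster, read 5.34 in EWS-OCT4A-GFP cells, against 4.13 in GFP cells, a difference of 1.21. Zscan4a, a transcribed pseudogene in the RefSeq table, read 4.94 in EWS-OCT4A-GFP cells, against 4.72 in GFP cells, a difference of 0.22. Another 2 probe sets are each annotated to 6 Zscan4 symbols at once, so neither can be given to a gene. They read 6.62 and 5.97 in EWS-OCT4A-GFP cells, against 5.17 and 4.55 in GFP cells, with differences of 1.45 and 1.42. Over the 7 Zscan4 probe sets, 7 differences were above 0, where 11745 of 23521 single-symbol probe sets were. Of the 7, 6 reached 2-fold, where 9.28% of single-symbol probe sets at or above the floor were. The exception was Zscan4a, whose samples differed by 1.17-fold. The 2 probe sets with 6 symbols are annotated to the other genes counted here, so the 7 are not separate observations.

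**Figure D2:**
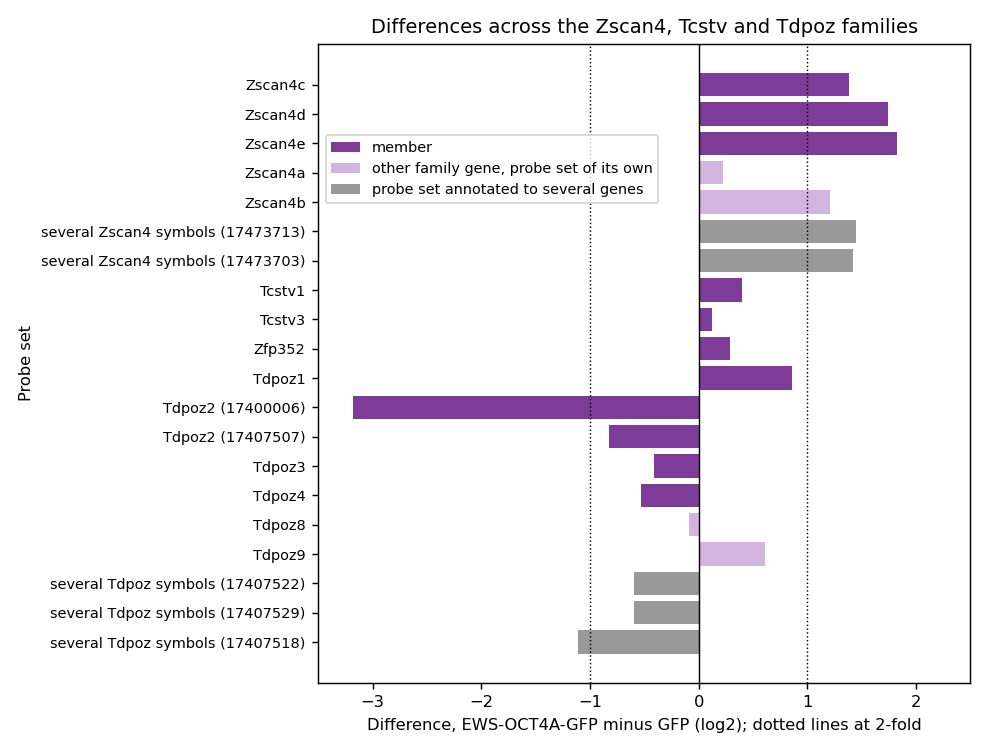
Difference on the log2 scale, EWS-OCT4A-GFP minus GFP (horizontal bars from 0, dotted lines at 2-fold), for the 11 probe sets of the 10 genes, for other genes of their families and for probe sets annotated to several genes. The 7 Zscan4 bars point right and 8 of the 10 Tdpoz bars point left, of which 1 at or above the floor, Tdpoz2 (17400006), passes 2-fold. Of the 10 Tdpoz probe sets, 6 are under the floor in both samples.

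The Tdpoz genes encode proteins with a TRAF domain and a POZ domain, related to the ubiquitin ligase adaptor SPOP, and lie together on chromosome 3. Of their 5 probe sets, 4 had differences below 0, opposite in sign to the Zscan4 genes, and 1 passed 2-fold. Among the 5, 3 were under the floor in both samples, and 10781 of all 23521 single-symbol probe sets were below 0. Tdpoz2 (probe set 17400006) read 4.49 in EWS-OCT4A-GFP cells, against 7.67 in GFP cells. Both values lay above the floor, and the difference of -3.18 made it 9.07-fold lower. A difference at least this far below 0, at or above the floor, was seen in 136 of 23521 single-symbol probe sets, or 0.578%.

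The second Tdpoz2 probe set (17407507) gave a much smaller difference. It read 3.01 in EWS-OCT4A-GFP cells, against 3.84 in GFP cells, both under the floor, a difference of -0.83. The 2 probe sets of Tdpoz2 thus had the same sign, and only the first passed 2-fold. Whether either probe set also reads other Tdpoz transcripts was not tested.

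Tdpoz3 (probe set 17400011) read 4.41 in EWS-OCT4A-GFP cells, against 4.82 in GFP cells, a difference of -0.41 with both values above the floor. Tdpoz4 (probe set 17400009), its neighbour, read 2.32 in EWS-OCT4A-GFP cells, against 2.85 in GFP cells, a difference of -0.53. Tdpoz1 (probe set 17407509) read 2.25 in EWS-OCT4A-GFP cells, against 1.40 in GFP cells, and its difference of 0.86 was the 1 positive value among the 5 Tdpoz probe sets. Tdpoz4 and Tdpoz1 were under the floor in both samples, so their order there carries little weight. Over all 10 Tdpoz probe sets on the array, those annotated to several genes included, 8 differences were below 0 and 2 above, with a median of -0.56. Of all 23521 single-symbol probe sets, 10781 were below 0. Among the 10, 6 were under the floor in both samples. A pair of the 8, both annotated to Tdpoz5 and Tdpoz7, held the same values as each other (-0.60), so these values enter the count and the median 2 times. A probe set annotated to both Tdpoz9 and Tdpoz1 read 2.51 in EWS-OCT4A-GFP cells, against 3.63 in GFP cells, a difference of -1.12 under the floor and opposite in sign to that of the Tdpoz1 probe set. Tdpoz8 differed by -0.09 and Tdpoz9 by 0.61, both under the floor in both samples.

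Tcstv1 and Tcstv3 belong to a small gene family named for its variable expression at the two-cell stage, and both are known to act on telomeres in mouse stem cells. Tcstv1 (probe set 17296548) read 1.46 in EWS-OCT4A-GFP cells, against 1.06 in GFP cells, a difference of 0.40. Tcstv3 (probe set 17290211) read 2.39 in EWS-OCT4A-GFP cells, against 2.27 in GFP cells, a difference of 0.12. Zfp352, a zinc finger gene of the two-cell embryo, read 3.79 in EWS-OCT4A-GFP cells, against 3.50 in GFP cells (probe set 17415411), a difference of 0.29. All 3 genes had the sign of the Zscan4 genes, stayed within 2-fold and lay under the floor in both samples, so a difference between the lines was not detectable at these signals.

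**Figure D3:**
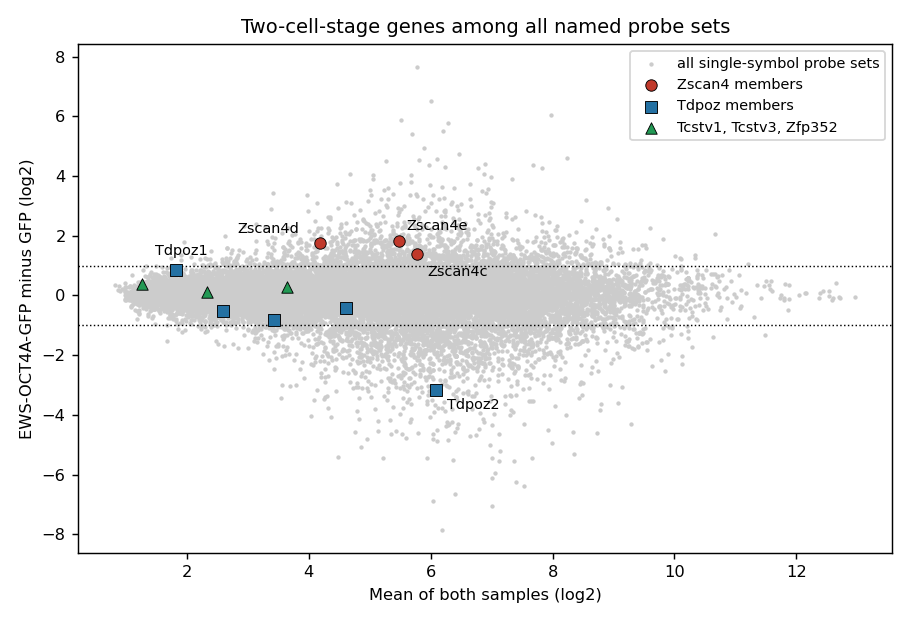
Difference on the log2 scale, EWS-OCT4A-GFP minus GFP (vertical axis), against the mean log2 value of both samples (horizontal axis) for the 23521 single-symbol probe sets in grey, with the 11 probe sets of the 10 genes in colour and dotted lines at 2-fold. The Zscan4 genes lie above the upper line at mean levels of 4.19 to 5.77, Tdpoz2 lies below the lower line at -3.18, and the others lie between the lines.

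Most genes beside these clusters had no single-symbol probe set. Of 77 other RefSeq genes that lie between the first and last of each cluster or are 1 of 5 on either side, 15 were measured, 2 of them around Zscan4 and 1 around Tdpoz, and 7 of the 15 were under the floor in both samples. Of the 8 at or above the floor, Zscan4b was the 1 at least 2-fold higher and 0 were at least 2-fold lower. Of all single-symbol probe sets at or above the floor 9.28% were higher and 11.7% lower, so both counts are near the background. Around Tcstv1 and Tcstv3 on chromosome 13, 8 other probe sets were measured, with a median difference of 0.17. The largest positive difference among them was that of Gm20767, with 4.99 in EWS-OCT4A-GFP cells, against 4.0 in GFP cells, a difference of 0.99. The largest negative one was that of D13Ertd608e, with 2.39 in EWS-OCT4A-GFP cells, against 3.44 in GFP cells, a difference of -1.05 under the floor in both samples. Next to the Tdpoz cluster, S100a10, a calcium-binding protein gene, read 7.41 in EWS-OCT4A-GFP cells, against 8.39 in GFP cells, a difference of -0.98. The 4 genes measured around Zfp352 on chromosome 4, among them the cell cycle inhibitors Cdkn2a (0.19) and Cdkn2b (0.44), had a median difference of 0.17.

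Of 41 other two-cell-stage genes on a list drawn up from general knowledge, 26 had a probe set of their own. Of their 29 probe sets, 3 were higher and 2 lower by 2-fold or more, where 5.6% and 7.04% of all single-symbol probe sets were, and the median was 0.21. The 3 that were higher were Zscan4b, described above, Gm8300 and Sp110. Gm8300, which read 5.07 in EWS-OCT4A-GFP cells, against 3.84 in GFP cells, differed by 1.24. Its GFP value lay under the floor, so the size of that difference is uncertain. Sp110, a nuclear body protein gene, differed by 1.14 at the probe set that differed most. Its others differed by 0.51 and by -0.01. The 2 genes that were lower were Pramel13, at 6.27 in EWS-OCT4A-GFP cells, against 7.46 in GFP cells, and Prtg, at 7.55 in EWS-OCT4A-GFP cells, against 8.68 in GFP cells. Pramel7 differed by -0.93. Under the floor in both samples, where no probe set is counted, Usp17lb differed by 1.59.

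Genes listed as activators of the two-cell programme were mixed, with 4 of 13 probe sets higher and 2 lower by 2-fold or more. Over all single-symbol probe sets, 5.6% were higher and 7.04% lower. Of the 13, 10 were at or above the floor, where the shares over single-symbol probe sets were 9.28% and 11.7%. Dppa4, whose product helps to switch on Dux, read 8.28 in EWS-OCT4A-GFP cells, against 6.38 in GFP cells, a difference of 1.90. Its partner Dppa2 read 9.82 in EWS-OCT4A-GFP cells, against 8.73 in GFP cells, a difference of 1.09. Dppa3, a maternal factor also known as Stella, differed by 1.42, and the T-box factor gene Tbx3 also by 1.42. Duxf3, the Dux gene itself, read 1.72 in EWS-OCT4A-GFP cells, against 1.76 in GFP cells, far under the floor in both. The probe sets that were lower belong to Gata3 (-3.58), also a trophectoderm marker, and Yap1 (-1.01), each of which has another probe set within 2-fold (-0.53 for Gata3 and 0.28 for Yap1). Obox5 differed by 0.49, Nelfa by 0.18 and Nfya by -0.10. Smchd1, at -0.77, is on the list and among the 13, although its product is known as a chromatin silencer and not as an activator.

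Of 28 measured repressors of two-cell genes, all at or above the floor, 4 were higher and 1 lower by 2-fold or more, where 9.28% and 11.7% of single-symbol probe sets at or above the floor were. The chromatin remodeller gene Atrx read 8.96 in EWS-OCT4A-GFP cells, against 6.83 in GFP cells, a difference of 2.12. Rif1, which encodes a replication timing and telomere factor that restrains Zscan4, differed by 1.96. Trim28, which encodes the corepressor of zinc finger proteins, read 10.3 in EWS-OCT4A-GFP cells, against 8.74 in GFP cells, a difference of 1.57. Uhrf1, needed to maintain DNA methylation, differed by 1.15. The 1 lower gene was Rcor1, a partner of the demethylase LSD1, at -1.91, and the DNA methyltransferase gene Dnmt1 differed by -0.95.

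**Figure D4:**
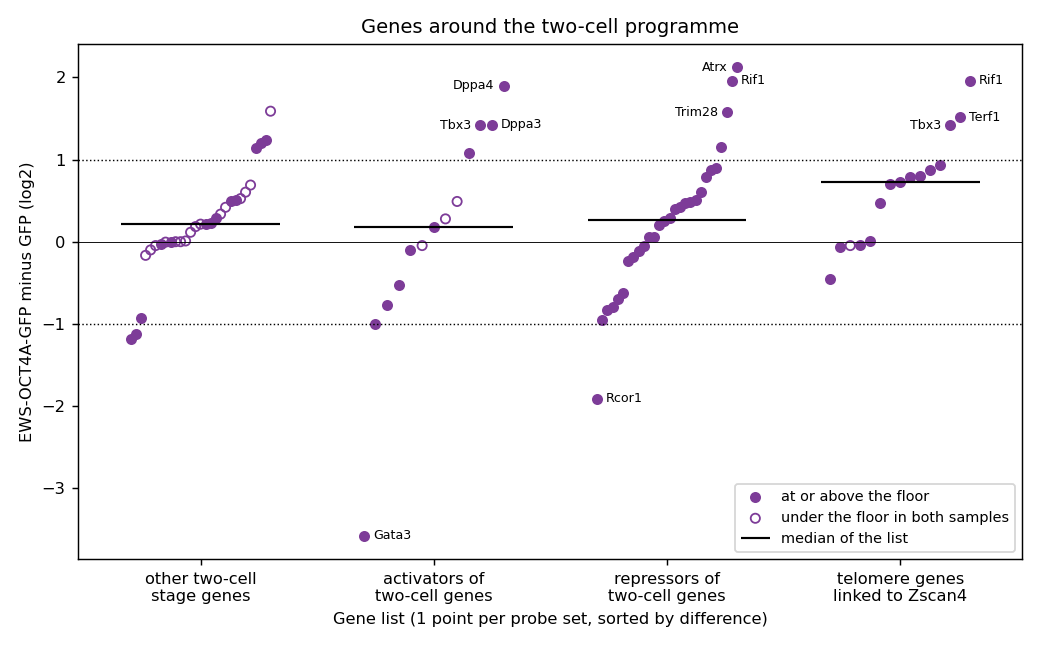
Difference on the log2 scale, EWS-OCT4A-GFP minus GFP (vertical axis), for each probe set of 4 gene lists, sorted within the list along the horizontal axis, with list medians as bars and dotted lines at 2-fold. Filled points are at or above the floor in at least 1 sample. Dppa4 (1.90), Atrx (2.12) and Rif1 (1.96) are among the highest points, and Gata3 (-3.58) and Rcor1 (-1.91) are the lowest.

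Of the telomere genes linked to Zscan4, 15 of 16 were measured. Of these, 3 were higher and 0 lower by 2-fold or more, where 5.6% and 7.04% of all single-symbol probe sets were, and the median was 0.73. Of the 15, 14 were at or above the floor, where the shares over single-symbol probe sets were 9.28% and 11.7%. Rif1 and Tbx3 are counted here and above. Duxf3 and Zfp809 are each on more than 1 of the earlier lists, so the lists are not separate. Terf1, which encodes the shelterin protein TRF1, read 9.69 in EWS-OCT4A-GFP cells, against 8.18 in GFP cells, a difference of 1.52. The meiotic recombinase gene Dmc1 differed by 0.94, the shelterin gene Pot1b by 0.88 and the cohesin gene Smc1a by 0.79.

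Markers of cell identity differed between the samples alongside the Zscan4 genes. Of 16 probe sets of 15 embryonic stem cell markers, 12 were at least 2-fold higher. Over all single-symbol probe sets that share was 5.6%, and over those at or above the floor 9.28%. The values of the 16 summed on the linear scale to 9785 in EWS-OCT4A-GFP cells, against 1529 in GFP cells. Of 15 probe sets of 13 trophectoderm markers, 11 were at least 2-fold lower, where 11.7% of single-symbol probe sets at or above the floor were. The 15 summed to 554.1 in EWS-OCT4A-GFP cells, against 7677 in GFP cells. Nanog, a core pluripotency factor, read 10.5 in EWS-OCT4A-GFP cells, against 5.94 in GFP cells, and the keratin gene Krt18, at the probe set that differed most, read 4.35 in EWS-OCT4A-GFP cells, against 10.7 in GFP cells. The GFP sample thus had low values for several markers of the labelled cell type. Fibroblast markers summed to 775.1 in EWS-OCT4A-GFP cells, against 508.3 in GFP cells, but without Vim, the member with the highest value, to 240.6 in EWS-OCT4A-GFP cells, against 364.4 in GFP cells. Primitive endoderm markers summed to 343.7 in EWS-OCT4A-GFP cells, against 335.5 in GFP cells, but without Lama1, the member with the highest value, to 140.9 in EWS-OCT4A-GFP cells, against 307.5 in GFP cells. Of 7 oocyte genes, which share the maternal programme, Zp3 was at least 2-fold higher, where 5.6% of all single-symbol probe sets were. The GFP value of Zp3, 3.66, lay under the floor. The other 6 oocyte genes were under the floor in both samples. The part of these identity differences in the Zscan4 and Tdpoz2 values was not tested.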

How the data were processed

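The authors deposited 1 table of log2 RMA values for 33793 probe sets in 2 samples. Per the submitters' processing notes it was made with RMA in Affymetrix Expression Console 1.1. The table does not state its log base, and log2 was taken because RMA gives log2 and the values ran from 0.618 to 13.0. The design text speaks of duplicates, but each line has 1 column, and no source used here says whether a column is a mean. Precision is limited by the number of arrays.

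Gene names came from the platform annotation, in which 23521 probe sets had 1 symbol, 1814 several and 8458 none. All 10 genes matched the RefSeq table (GRCm38.p6) by gene ID. No source used here gives the array's build, so probe sets have no coordinates.

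With 1 sample per group, differences were described by size, and no test was run. The 10 genes and all lists were chosen with earlier results of these data known. The rule for named genes took all 10 genes and allowed, from other lists, any gene of a list of up to 12 and otherwise the 6 with the largest absolute difference at or above the floor. Not all that it allowed are named, and Zfp809 is named only for being on more than 1 list. Gm20767, D13Ertd608e, S100a10, Cdkn2a, Cdkn2b, Usp17lb, Nanog, Krt18, Vim, Lama1 and Zp3 were picked with their values in view. The alternatives varied threshold, floor, normalization and probe set choice. The counting and loess steps were tested on simulated data. Promoter windows were aligned with Biopython 1.88, with gaps at the ends free. Python 3.11.15, numpy 2.4.6, pandas 2.3.3, statsmodels 0.14.6 and matplotlib 3.10.9 were used.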

Additional observations from a re-analysis of the deposited data

How the results depend on the processing

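No paired analysis was possible because there is 1 sample per group, and no replicate could be left out. Median centring, quantile normalization and loess centring moved no difference of the 11 probe sets by more than 0.09 and changed 0 signs. The count of 3 higher probe sets became 2 at a 3-fold threshold and with the floor at the 75th percentile (5.798) or at 6. It was 3 under the other alternatives run for the count. Raising the lower value of a pair to the floor was run for single probe sets, and there Zscan4d went from 1.74 to 0.96, short of 2-fold. The 1 lower probe set was counted under every alternative run. The median of 0.29 became 1.38 over the 5 probe sets at or above the floor, by construction. The share of single-symbol probe sets counted as higher was 12.1% at 1.5-fold and 2.07% at 3-fold, and as lower 12.3% and 3.41%. Over all 7 Zscan4 probe sets, a count added after seeing the data, the number at least 2-fold higher was 6 under each of the 3 normalizations. Signal over background is unknown, which limits the 6 probe sets under the floor.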

Other observations

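The Tdpoz1 and Zfp352 promoters, from different chromosomes and families, share a run of 17 identical letters, ACACACCTTTAATCCAG, looked for after reading the sequences. On either strand it occurs in 5 of 32851 promoter windows, or 0.0152%, and 4 of these belong to Tdpoz1, Tdpoz8, Tdpoz9 and Zfp352. The run was defined as the longest shared by Tdpoz1 and Zfp352. Its presence in both was therefore fixed in advance, and the share is a description only. All 4 genes were under the floor in both samples. A pair of probe sets, both annotated to Tdpoz5 and Tdpoz7, had the same values as each other, 4.40 in EWS-OCT4A-GFP cells, against 4.996 in GFP cells. The windows of those 2 genes were identical at 99.7% of 300 positions. Some other Tdpoz windows were also alike, with 99.6% for Tdpoz1 and Tdpoz9. Tdpoz8 had 2 windows. Tdpoz1 reached 84.6% against the first and 54.4% against the second, and Tdpoz4 reached 52.3% against the first and 94.7% against the second. Tdpoz1 and Tdpoz9 both hold the 17-letter run and are near copies, and Tdpoz8 is a relative of both. The Tdpoz genes are therefore not separate occurrences of the run. Other pairs were less alike, with 67.5% for Tdpoz4 and Tdpoz5. Tdpoz1 and Tdpoz4, the 2 of the 10 genes in that family with a window, were identical at 54.0% of 189 aligned positions. That is the level of different families, as Tdpoz1 reached 53.1% with Zscan4d and 57.6% with Zfp352.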
